A study of Mus musculus with 6 samples.

Results

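The BCL2 family was described through 10 genes, *Bax*, *Bak1*, *Bcl2*, *Bcl2l1*, *Mcl1*, *Bcl2l11*, *Bid*, *Bbc3*, *Pmaip1* and *Bnip3*, out of the 23995 genes in the deposited expression table. They were taken by gene symbol from a fixed list of names, and all 10 were found. Expression was measured by RNA sequencing of mouse hearts after TAC surgery, in which the transverse aorta is tied around a needle so that the left ventricle pumps against a raised pressure. One genotype was LTBP4-CKO, with 3 libraries, an inducible knockout of *Ltbp4* (latent transforming growth factor beta binding protein 4) in heart muscle cells only. The other was labelled WT, with 3 libraries whose titles and column names read flox or FLOX. Mice of both groups had surgery at 10 to 12 weeks of age. The inducing agent, the Cre driver, the time from surgery to collection and the floxed or Cre status of the WT mice were not given in the sources used here. An effect of Cre or of the inducing agent can thus not be told apart from that of the loss of *Ltbp4*. All hearts had TAC and hearts without it were not analysed here, so the differences lie between genotypes under pressure load.

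The BCL2 family controls whether the outer membrane of mitochondria is opened, the step that releases cytochrome c and starts the caspase cascade. Effector proteins (BAX and BAK1) form the openings, and pro-survival proteins (BCL2, BCL-xL and MCL1) hold the effectors back. BH3-only proteins such as BIM, BID, PUMA and NOXA sense stress and either occupy the pro-survival proteins or activate the effectors directly. BNIP3 is an atypical member that is induced by low oxygen and recruits the autophagy machinery to mitochondria. Adult heart muscle cells rarely divide, and in mice they depend on MCL1 for normal mitochondria.

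Values are FPKM (fragments per kilobase of transcript, scaled to library size), so levels can be set side by side between genes. FPKM totals ran from 712635 to 867428 in LTBP4-CKO libraries and from 696803 to 739328 in WT libraries. Depth recovered from low values was about 5800000 to 13600000 fragments in LTBP4-CKO libraries and 3700000 to 5800000 in WT libraries. LTBP4-CKO libraries 2 and 3 differed by little more than counting noise (the index of their differences was 1.38 to 1.65 times that of counting), as did WT libraries 1 and 3 (1.17 to 2.06 times), while every other pair reached at least 174 times in its noisiest depth class. The mean of each such pair entered as 1 sample, giving 2 LTBP4-CKO and 2 WT samples. Whether the samples are separate animals is not in the labels, so p-values measure only their spread, which may be technical. With 2 samples against 2 an exact permutation test cannot go below p = 0.333, and with 3 libraries against 3 not below 0.1. *Ltbp4* itself was at 139, 199 and 195 FPKM in LTBP4-CKO libraries 1 to 3, against 368, 248 and 357 FPKM in WT libraries 1 to 3, a log2 difference of −0.86 (SE 0.49) with a limma adjusted p of 0.999 after Benjamini-Hochberg adjustment. The part of cell content in these *Ltbp4* values was not tested.

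Cell content differed between libraries within each genotype. All 12 cardiomyocyte markers were measured, and their summed FPKM was 91750 in LTBP4-CKO library 1 and 26600 to 26870 in LTBP4-CKO libraries 2 and 3, against 30990 in WT library 2 and 8769 to 8906 in WT libraries 1 and 3. Those 2 WT libraries carried atrial markers, with a sum of 37560 and 37640, beside 1587 in WT library 2, and LTBP4-CKO libraries ran from 279.1 to 13930. In LTBP4-CKO library 1 the stress-induced *Nppa* gave 13880 of the 13930, while *Myl7*, *Sln* and *Myl4* were at 2.82, 0.684 and 8.11 FPKM there, against 2213, 1857 and 2629 FPKM in WT library 1. The endothelial sum was 8124 in LTBP4-CKO library 1 and 18510 to 18530 in LTBP4-CKO libraries 2 and 3, against 12050 to 15750 in WT libraries. *Fabp4*, which also marks fat cells, gave 6977 of the 8124 in LTBP4-CKO library 1. Of the 9 endothelial markers 4 (*Pecam1*, *Cdh5*, *Kdr* and *Tek*) were above all WT libraries in every LTBP4-CKO library, and 0 were below. *Cldn5* and *Egfl7* were at 72.8 and 289.5 FPKM in LTBP4-CKO library 1, below every WT library. The fibroblast sum was 3852, 1198 and 1216 in LTBP4-CKO libraries 1 to 3, against 6118, 2745 and 6083 in WT libraries 1 to 3. All 10 fibroblast markers had lower estimates in LTBP4-CKO, and 4 of them were below all WT libraries in every LTBP4-CKO library. The macrophage sum was 471.5 to 621.7 in LTBP4-CKO libraries, against 763.5 to 1598 in WT libraries, and the adipocyte sum was 1.55 to 22.7 in LTBP4-CKO libraries, against 224.9 to 626.6 in WT libraries. Of 11 macrophage markers 10 were below all WT libraries in every LTBP4-CKO library, as were 6 of 7 adipocyte markers. Among all tested genes 10.4% were above and 11.5% below all WT libraries in every LTBP4-CKO library. In heart tissue, fewer cells of a type and less RNA per cell cannot be told apart.

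**Figure D1:**
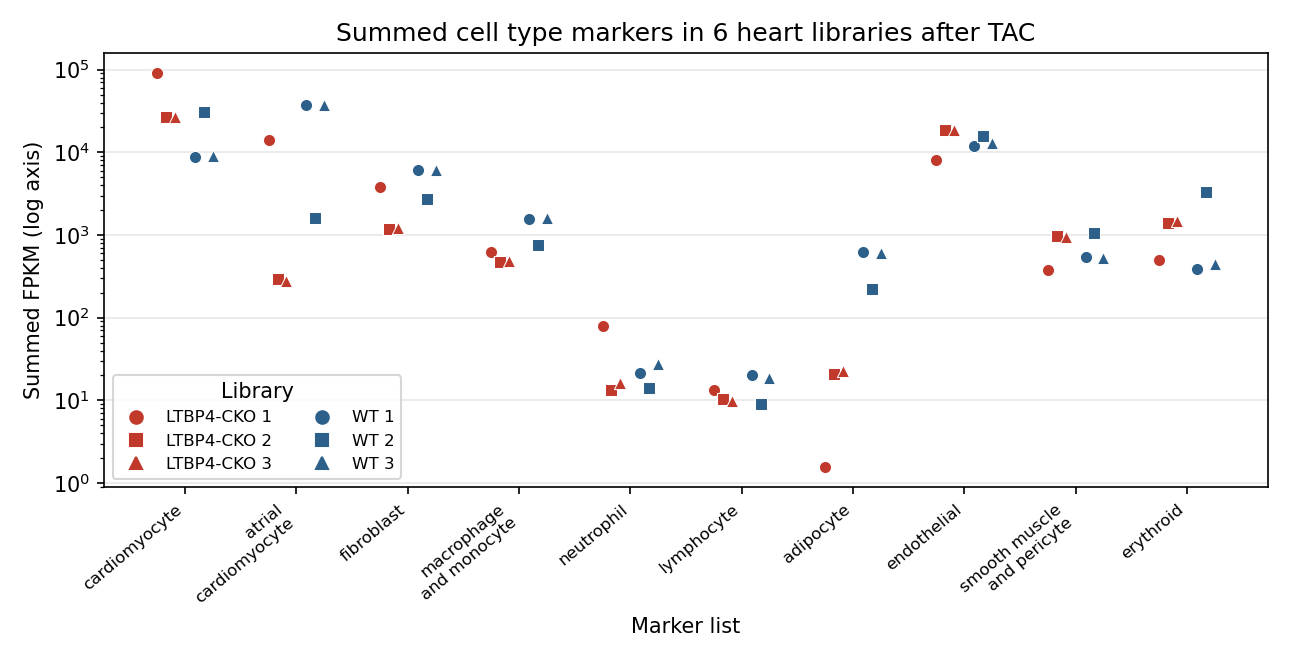
Summed FPKM (log axis) of cell type marker lists in each library, LTBP4-CKO in red on the left of each list and WT in blue on the right. LTBP4-CKO library 1 has the highest cardiomyocyte sum (91750) and the lowest endothelial sum (8124, of which *Fabp4* is 6977), and WT libraries 1 and 3 have the highest atrial sums (37560 and 37640).

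Across the whole table, 12485 genes had at least 1 FPKM in at least 3 libraries and were tested with limma on log2(FPKM + 1). Of the 10 BCL2 family genes, 9 passed this filter and *Pmaip1* did not. None of the 9 passed the threshold of 0.05 in either direction, and 0 had an unadjusted p under 0.05 (limma, Benjamini-Hochberg adjusted p = 0.999 for each of the 9). The background is 0.00801% of tested genes called higher in LTBP4-CKO, which is 1 gene (*Esr1*), 0% called lower, and 3% with an unadjusted p under 0.05. *Esr1*, named after its values were seen, had a log2 difference of 9.90 (limma adjusted p = 0.0020), and the source of its reads was not tested. Estimates were higher in LTBP4-CKO for 8 of the 9 genes and lower for *Bid*, with a median log2 difference of 0.34, where 54.2% of all tested genes had higher estimates and their median was 0.04. The median of the 9 was 0.12 without LTBP4-CKO libraries 2 and 3 and 0.55 without LTBP4-CKO library 1. The values did not divide by genotype alone. *Bax*, *Bak1* and *Bcl2l1* were highest in LTBP4-CKO libraries 2 and 3, and *Bnip3* was highest in LTBP4-CKO library 1.

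**Figure D2:**
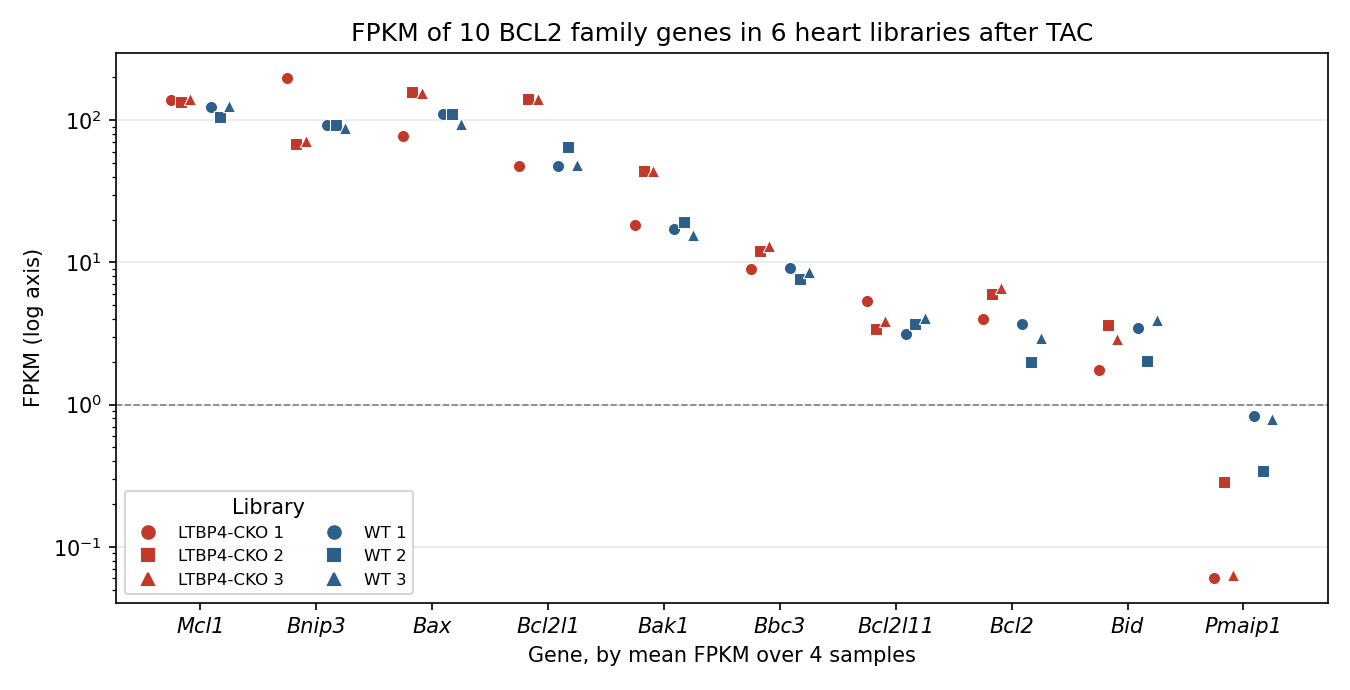
FPKM (log axis) of the 10 genes in each library, ordered by mean level over the 4 samples, with LTBP4-CKO in red on the left of each gene and WT in blue on the right. The dashed line marks 1 FPKM, the filter value, and only *Pmaip1* lies below it. *Bnip3* is split between LTBP4-CKO library 1 (198 FPKM) and libraries 2 and 3 (68.1 and 71.8 FPKM).

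The order of levels over the 4 samples was *Mcl1* (mean 126.4 FPKM), *Bnip3* (112.5), *Bax* (111.8), *Bcl2l1* (75.3), *Bak1* (24.4), *Bbc3* (9.51), *Bcl2l11* (4.06), *Bcl2* (3.90), *Bid* (2.69) and *Pmaip1* (0.347). The leading 3 genes did not differ beyond their spread, since *Mcl1* was above *Bnip3* in 3 of 4 samples and *Bnip3* above *Bax* in 1 of 4. The steps from *Bax* to *Bcl2l1*, from *Bcl2l1* to *Bak1*, from *Bak1* to *Bbc3* and from *Bbc3* to *Bcl2l11* had the same direction in all 4 samples. *Bcl2l11*, *Bcl2* and *Bid* again did not differ beyond their spread. *Bcl2*, the founding member, thus had a much lower transcript level than its pro-survival relatives *Mcl1* and *Bcl2l1* in every library. *Mcl1* was the steadiest of the 10, with a coefficient of variation of 12.1% over the 4 samples, and *Pmaip1* varied most (95.2%), followed by *Bcl2l1* (59.2%), *Bak1* (52.7%) and *Bnip3* (51.4%).

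The effector genes *Bax* and *Bak1* had their highest values in LTBP4-CKO libraries 2 and 3. *Bax* (chromosome 7, mm10, 45461695 to 45466898, minus strand, protein coding, up to 6 exons per transcript) was at 77.5, 158 and 155 FPKM in LTBP4-CKO libraries 1 to 3, against 110, 111 and 93.5 FPKM in WT libraries 1 to 3. The genotypes overlapped, because LTBP4-CKO library 1 lay below every WT library and libraries 2 and 3 above them. Means were 117 ± 55.9 FPKM in LTBP4-CKO samples and 106.5 ± 6.59 FPKM in WT samples (SD, n = 2 each). The log2 difference was 0.05 (SE 0.49, 95% interval −1.12 to 1.23), and it was −0.45 for LTBP4-CKO library 1 alone and 0.55 for libraries 2 and 3, each against the WT mean. About 752 to 865 reads in LTBP4-CKO libraries and 335 to 499 in WT libraries lay behind *Bax*, so counting error is small beside this split. The predicted gene *Gm45808* covers the 5′ end of *Bax* on the same strand in the annotation and is not listed separately in the table.

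*Bak1* (chromosome 17, 27018035 to 27036378, minus strand) was at 18.4, 43.7 and 43.7 FPKM in LTBP4-CKO libraries 1 to 3, against 17.1, 19.4 and 15.6 FPKM in WT libraries 1 to 3. LTBP4-CKO library 1 lay within the WT range and the other 2 LTBP4-CKO libraries lay far above it. The log2 difference was 0.65 (SE 0.48, 95% interval −0.49 to 1.79), with 0.05 for LTBP4-CKO library 1 and 1.25 for libraries 2 and 3 against the WT mean. *Bak1* overlaps *Ggnbp1* on the opposite strand, which was listed at 57.1 to 61.3 FPKM in LTBP4-CKO libraries and 19.1 to 53.3 in WT libraries. The counting was not stated to use strand, so reads of these overlapping genes cannot be told apart. *Ggnbp1* was at 59.8 FPKM in LTBP4-CKO library 1, where *Bak1* was at 18.4 FPKM. In WT library 2 both genes had their highest WT value, 53.3 and 19.4 FPKM. The part of *Ggnbp1* reads in the *Bak1* values was not tested.

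Of the pro-survival genes, *Bcl2l1* followed the same libraries as the effectors, while *Mcl1* and *Bcl2* were above WT in all LTBP4-CKO libraries. *Bcl2l1* (chromosome 2, 152754173 to 152831728, minus strand), which encodes BCL-xL, was at 47.5, 141 and 141 FPKM in LTBP4-CKO libraries 1 to 3, against 47.7, 64.6 and 48.2 FPKM in WT libraries 1 to 3. LTBP4-CKO library 1 lay just below the WT range, and libraries 2 and 3 were more than 2 times the highest WT library. The log2 difference was 0.55 (SE 0.58, 95% interval −0.85 to 1.95), with −0.22 for LTBP4-CKO library 1 and 1.33 for libraries 2 and 3 against the WT mean. *Bcl2l1* is abundant in maturing red cells, and the summed erythroid markers were 492.3 in LTBP4-CKO library 1 and 1391 to 1465 in libraries 2 and 3, against 3281 in WT library 2 and 392.7 to 451.1 in WT libraries 1 and 3. WT library 2, with the highest erythroid sum of all libraries, had 64.6 FPKM of *Bcl2l1*, the highest of the WT libraries. The part of red cells in the *Bcl2l1* values was not tested.

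*Mcl1* (chromosome 3, 95658721 to 95663178, plus strand) was at 138, 134 and 141 FPKM in LTBP4-CKO libraries 1 to 3, against 124, 105 and 126 FPKM in WT libraries 1 to 3. The genotypes did not overlap, and the gap between the lowest LTBP4-CKO library and the highest WT library was small. The log2 difference was 0.26 (SE 0.42, 95% interval −0.74 to 1.26), from means of 138 ± 0.355 FPKM in LTBP4-CKO samples and 115 ± 13.7 FPKM in WT samples (SD, n = 2 each). Unlike the other 3 genes above, *Mcl1* was nearly equal in both LTBP4-CKO samples (0.27 and 0.26 against the WT mean).

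*Bcl2* (chromosome 1, 106538178 to 106714290, minus strand) was at 3.98, 6.02 and 6.60 FPKM in LTBP4-CKO libraries 1 to 3, against 3.66, 2.01 and 2.96 FPKM in WT libraries 1 to 3. Every LTBP4-CKO library was above every WT library, and *Bcl2* had the largest log2 difference of the tested members, 0.74 (SE 0.43, 95% interval −0.29 to 1.78). This fold is 1.93 in FPKM, and the log2(FPKM + 1) scale understates the change of genes as low as *Bcl2*. About 241 to 374 reads in LTBP4-CKO libraries and 51.0 to 140 in WT libraries lay behind it. Of the 9 tested members, *Bcl2* and *Mcl1* were the 2 with all LTBP4-CKO libraries above all WT libraries, and 0 had them all below. Among all tested genes 10.4% were entirely higher in LTBP4-CKO in this sense and 11.5% entirely lower.

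**Figure D3:**
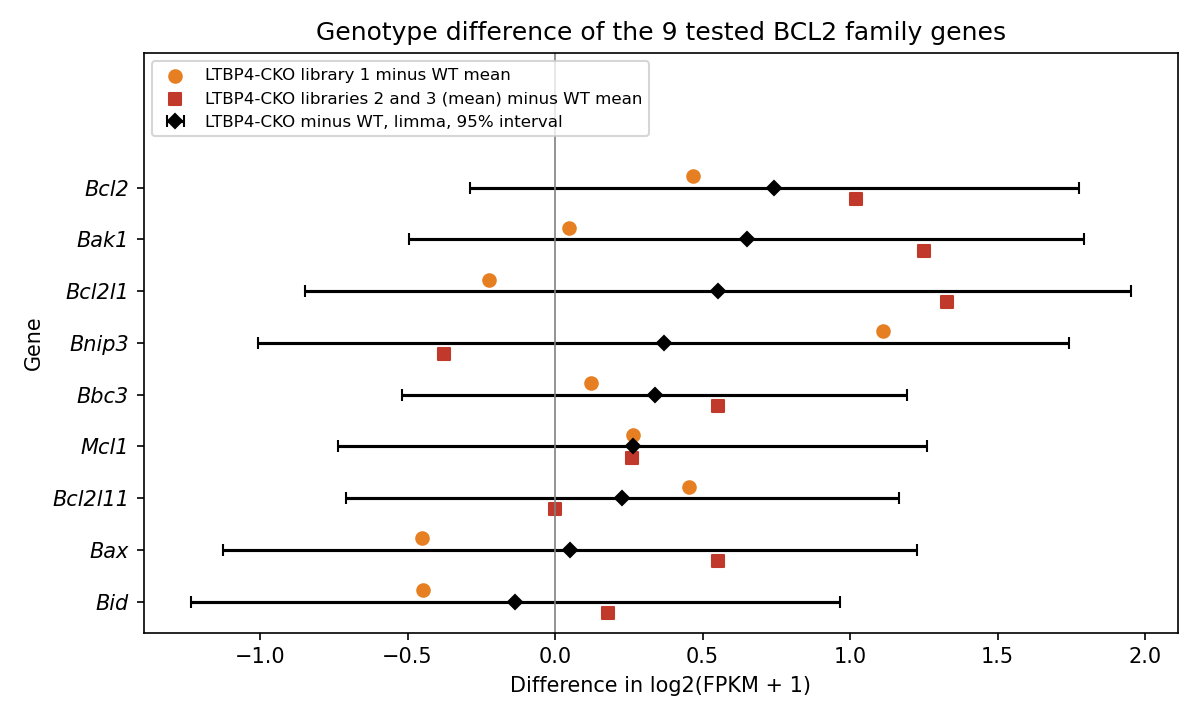
Difference in log2(FPKM + 1), LTBP4-CKO minus WT, for the 9 tested genes, with the limma estimate over 2 samples per genotype and its 95% interval (black), and each LTBP4-CKO sample against the WT mean (orange for library 1, red for libraries 2 and 3). All 9 intervals cover 0, and the LTBP4-CKO samples lie on opposite sides of 0 for *Bax*, *Bcl2l1*, *Bnip3* and *Bid*.

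Of the 4 BH3-only genes, 3 passed the filter and 0 passed the test in either direction, and all 4 were lower in level than *Bak1* in every library. *Bbc3* (chromosome 7, 16309583 to 16318334, plus strand) encodes PUMA, a p53-induced protein, and was at 9.03, 12.1 and 12.9 FPKM in LTBP4-CKO libraries 1 to 3, against 9.08, 7.68 and 8.51 FPKM in WT libraries 1 to 3. LTBP4-CKO library 1 lay inside the WT range, just under its upper end, and libraries 2 and 3 lay above it. The log2 difference was 0.34 (SE 0.36, 95% interval −0.52 to 1.19). *Bcl2l11* (chromosome 2, 128126038 to 128162547, plus strand) encodes BIM and was at 5.34, 3.41 and 3.86 FPKM in LTBP4-CKO libraries 1 to 3, against 3.16, 3.66 and 4.06 FPKM in WT libraries 1 to 3. The genotypes overlapped, with LTBP4-CKO library 1 the highest of the 6, and the log2 difference was 0.23 (SE 0.39) with that library and 0.00062 without it.

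*Bid* (chromosome 6, 120893119 to 120916820, minus strand) encodes the protein that caspase-8 cleaves to link death receptors to mitochondria. It was at 1.76, 3.66 and 2.87 FPKM in LTBP4-CKO libraries 1 to 3, against 3.45, 2.02 and 3.95 FPKM in WT libraries 1 to 3. The genotypes overlapped and the log2 difference was −0.13 (SE 0.46, 95% interval −1.24 to 0.97). The highest values were in LTBP4-CKO library 2 and in WT libraries 1 and 3, on about 41.1 to 51.1 reads per LTBP4-CKO library and 15.8 to 48.7 per WT library.

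*Pmaip1*, which encodes the MCL1-binding protein NOXA, was under 1 FPKM in every library and was not tested. It was at 0.0608, 0.284 and 0.0630 FPKM in LTBP4-CKO libraries 1 to 3, against 0.829, 0.344 and 0.794 FPKM in WT libraries 1 to 3. Every LTBP4-CKO library was below every WT library. This held for 7.74% of all 23995 genes in the table, of which 16954 had a value above 0 in any library. Genes at 0 throughout cannot meet this rule, and the share among the 12485 tested genes was 11.5%. These values rest on about 2.02, 4.03 and 1.03 reads in LTBP4-CKO libraries and 11.2, 3.09 and 11.2 reads in WT libraries. The highest LTBP4-CKO library and the lowest WT library are thus about 1 read apart in count, at unequal depth. The WT libraries with the higher values are the pair that carried atrial markers, whose part was not tested.

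*Bnip3* (chromosome 7, 138890836 to 138909506, minus strand) ran opposite to the effectors. It was at 198, 68.1 and 71.8 FPKM in LTBP4-CKO libraries 1 to 3, against 92.0, 92.1 and 88.1 FPKM in WT libraries 1 to 3. The WT libraries were almost equal, LTBP4-CKO library 1 was far above them, and LTBP4-CKO libraries 2 and 3 were below them. The log2 difference was 0.37 (SE 0.57, 95% interval −1.01 to 1.74), with 1.11 for LTBP4-CKO library 1 and −0.38 for libraries 2 and 3 against the WT mean. *Bnip3* made up 39.6% of the summed FPKM of the 10 genes in LTBP4-CKO library 1 and 11.9% to 12.4% in libraries 2 and 3, against 22.4% to 22.6% in WT libraries. LTBP4-CKO library 1 is also the library with the highest cardiomyocyte sum (91750). In WT libraries that sum ranged from 8769 to 30990 and *Bnip3* from 88.1 to 92.1 FPKM. The WT sum is no plain measure of cardiomyocyte amount, since WT libraries 1 and 3 carried atrial markers. Within it *Myl2* was at 1337, 10400 and 1337 FPKM in WT libraries 1 to 3, and *Actc1* at 1268, 1452 and 1217 FPKM. The part of cell content in the *Bnip3* value of LTBP4-CKO library 1 was not tested. An antisense gene (*Gm45507*) and a pseudogene (*Gm18258*) lie within the *Bnip3* locus on the opposite strand, and their reads cannot be told apart from its own.

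Between the LTBP4-CKO samples, *Bax* (2.02-fold), *Bak1* (2.37-fold) and *Bcl2l1* (2.97-fold) were at least 2-fold higher in libraries 2 and 3 than in library 1, and *Bnip3* was 2.83-fold higher in library 1 than in libraries 2 and 3. Among all tested genes 11.6% and 15.6% differed that much in these directions. No test is possible between 1 sample and 1 sample. Within WT the largest differences among the 9 tested members were those of *Bid* (0.64) and *Bcl2* (0.52), both higher in libraries 1 and 3 than in library 2 on the log2 scale.

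The promoters of *Bax*, *Bcl2l1* and *Bnip3* are shown because these genes differed at least 2-fold between the LTBP4-CKO samples, in opposite directions, and because *Bnip3* is a known target of the hypoxia-inducible factors. *Bak1* also differed at least 2-fold, but its RefSeq start lies 7751 bases from the end of the locus as deposited, so its window is not shown. Each window holds the 250 bases before the RefSeq start (GRCm38.p6, minus strand, read 5′ to 3′ in the direction of transcription). Capitals mark ACGTG, a form of the core hypoxia response motif, on either strand. The other form, GCGTG, was not searched and is not marked.
Bax, chr7:45466899-45467148: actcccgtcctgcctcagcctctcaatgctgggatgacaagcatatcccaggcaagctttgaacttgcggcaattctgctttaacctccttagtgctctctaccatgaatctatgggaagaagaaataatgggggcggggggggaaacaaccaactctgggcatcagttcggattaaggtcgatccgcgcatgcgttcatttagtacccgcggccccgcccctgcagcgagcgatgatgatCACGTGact
Bcl2l1, chr2:152831729-152831978: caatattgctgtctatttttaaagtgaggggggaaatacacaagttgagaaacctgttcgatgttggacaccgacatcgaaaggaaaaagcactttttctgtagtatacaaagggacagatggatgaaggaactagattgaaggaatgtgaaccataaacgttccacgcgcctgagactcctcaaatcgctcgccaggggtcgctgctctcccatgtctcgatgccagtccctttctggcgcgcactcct
Bnip3, chr7:138909507-138909756: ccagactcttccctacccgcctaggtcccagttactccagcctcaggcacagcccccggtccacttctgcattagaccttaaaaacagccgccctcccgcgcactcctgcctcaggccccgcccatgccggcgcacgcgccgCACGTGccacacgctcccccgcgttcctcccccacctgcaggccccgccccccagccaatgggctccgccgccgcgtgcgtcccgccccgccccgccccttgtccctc
In *Bax* and *Bnip3* ACGTG occurs on both strands of a single palindrome. The palindrome starts 9 bases before the start of *Bax* and 108 bases before that of *Bnip3*. ACGTG is not in the *Bcl2l1* window. Of 9 members with a window, 2 hold it, and so do 16.6% of 32851 windows of the same length. All motifs were searched on both strands. The GC box GGGCGG is in 7 of the 9 and in 32.7% of all windows. CCAAT is in 2 of the 9 and in 33.8% of all windows. The motifs TTCNNNGAA and TATAAA are in 0 of the 9, beside 7.02% and 12.4% of all windows. These matches describe letters only.

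Ratios within a library do not depend on how that library was scaled. *Bax* to *Bcl2* was 19.5, 26.3 and 23.5 in LTBP4-CKO libraries 1 to 3, against 30.1, 55.3 and 31.6 in WT libraries 1 to 3. *Bax* to *Bcl2l1* was 1.63, 1.12 and 1.10 in LTBP4-CKO libraries 1 to 3, against 2.31, 1.72 and 1.94 in WT libraries 1 to 3. Both of these ratios were thus lower in every LTBP4-CKO library than in every WT library. The log2 differences were −0.91 and −0.50, and the exact two-sided permutation test gave p = 0.333 over samples and p = 0.1 over libraries for each, the smallest that it can give. With Benjamini-Hochberg adjustment over the 6 ratios computed, the exact p is 1 over samples and 0.3 over libraries, so neither difference passes. *Bak1* to *Mcl1*, also a ratio of an effector to a pro-survival gene, did not follow this pattern. It was 0.133, 0.326 and 0.310 in LTBP4-CKO libraries 1 to 3, against 0.138, 0.184 and 0.124 in WT libraries 1 to 3. The ratios of *Bax* to *Mcl1*, *Bak1* to *Bcl2* and *Bak1* to *Bcl2l1* were not compared between genotypes. The share of all gene pairs whose ratios do not overlap was not computed. *Mcl1* to *Bcl2l1* was 2.90, 0.950 and 0.999 in LTBP4-CKO libraries 1 to 3, against 2.59, 1.63 and 2.61 in WT libraries 1 to 3. Thus *Bcl2l1* equalled or passed *Mcl1* only in LTBP4-CKO libraries 2 and 3. *Bcl2l1* to *Bcl2* overlapped between genotypes, at 12.0 to 23.5 in LTBP4-CKO libraries and 13.0 to 32.1 in WT libraries. *Bnip3* to its relative *Bnip3l* was 4.12 in LTBP4-CKO library 1 and lay between 1.76 and 2.11 in all other libraries. The sum of the 10 genes was 499.6 to 578.8 FPKM in LTBP4-CKO libraries, against 391.5 to 410.7 FPKM in WT libraries. Different genes carried it, as *Bnip3* gave 39.6% of it in LTBP4-CKO library 1 and 11.9% to 12.4% in libraries 2 and 3. *Bcl2l1* gave 9.52% in LTBP4-CKO library 1 and 24.35% to 24.75% in libraries 2 and 3. The same sum was not computed for other gene sets, so it has no background. Unlike a ratio, the sum depends on how each library was scaled. The FPKM total of all genes was also higher in LTBP4-CKO library 1 (867428) than in WT libraries (696803 to 739328).

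**Figure D4:**
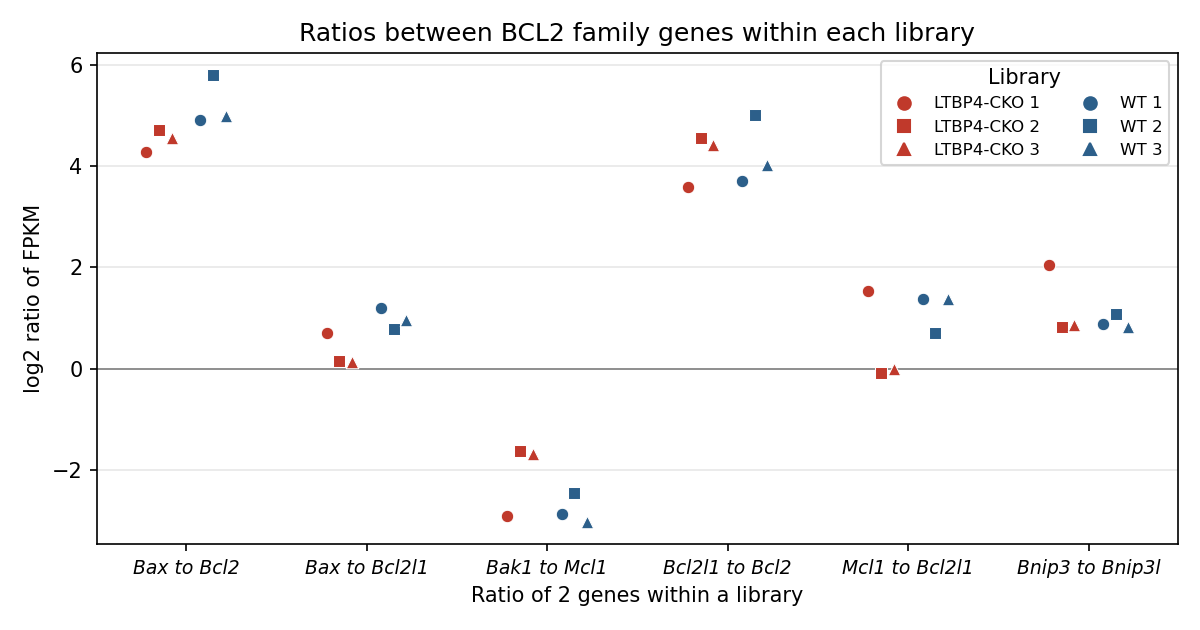
Log2 ratio of 2 genes' FPKM within each library, LTBP4-CKO in red on the left and WT in blue on the right. *Bax* to *Bcl2* and *Bax* to *Bcl2l1* are lower in all 3 LTBP4-CKO libraries than in all 3 WT libraries, and the other 4 ratios overlap.

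Among 15 further BCL2 family genes, 10 passed the filter, with 3 higher and 7 lower estimates and a median log2 difference of −0.09 (0.07 without LTBP4-CKO library 1), and 0 passed the test in either direction. *Bcl2a1b*, which encodes a pro-survival protein of white blood cells, was at 6.93, 4.12 and 5.49 FPKM in LTBP4-CKO libraries 1 to 3, against 15.7, 13.7 and 9.77 FPKM in WT libraries 1 to 3. Its log2 difference was −1.07 (SE 0.36, 95% interval −1.92 to −0.21), and it was the 1 gene of these 10 with an unadjusted p under 0.05 (limma, adjusted p = 0.999 after Benjamini-Hochberg adjustment). *Bcl2a1b* has near-identical copies in the mouse genome among which reads can be split, and 10 of 11 macrophage markers were lower in the same libraries, whose part was not tested. *Bcl2l13*, which encodes a mitophagy receptor, was at 9.05, 8.84 and 8.15 FPKM in LTBP4-CKO libraries 1 to 3, against 4.83, 5.91 and 4.47 FPKM in WT libraries 1 to 3, a log2 difference of 0.64 (SE 0.35). *Bok*, an effector relative of *Bax* that was named after its values were seen, was at 15.4, 69.1 and 69.3 FPKM in LTBP4-CKO libraries 1 to 3, against 35.7, 37.8 and 43.3 FPKM in WT libraries 1 to 3. It thus had the same split as *Bax*, with LTBP4-CKO library 1 below and libraries 2 and 3 above all WT libraries.

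**Figure D5:**
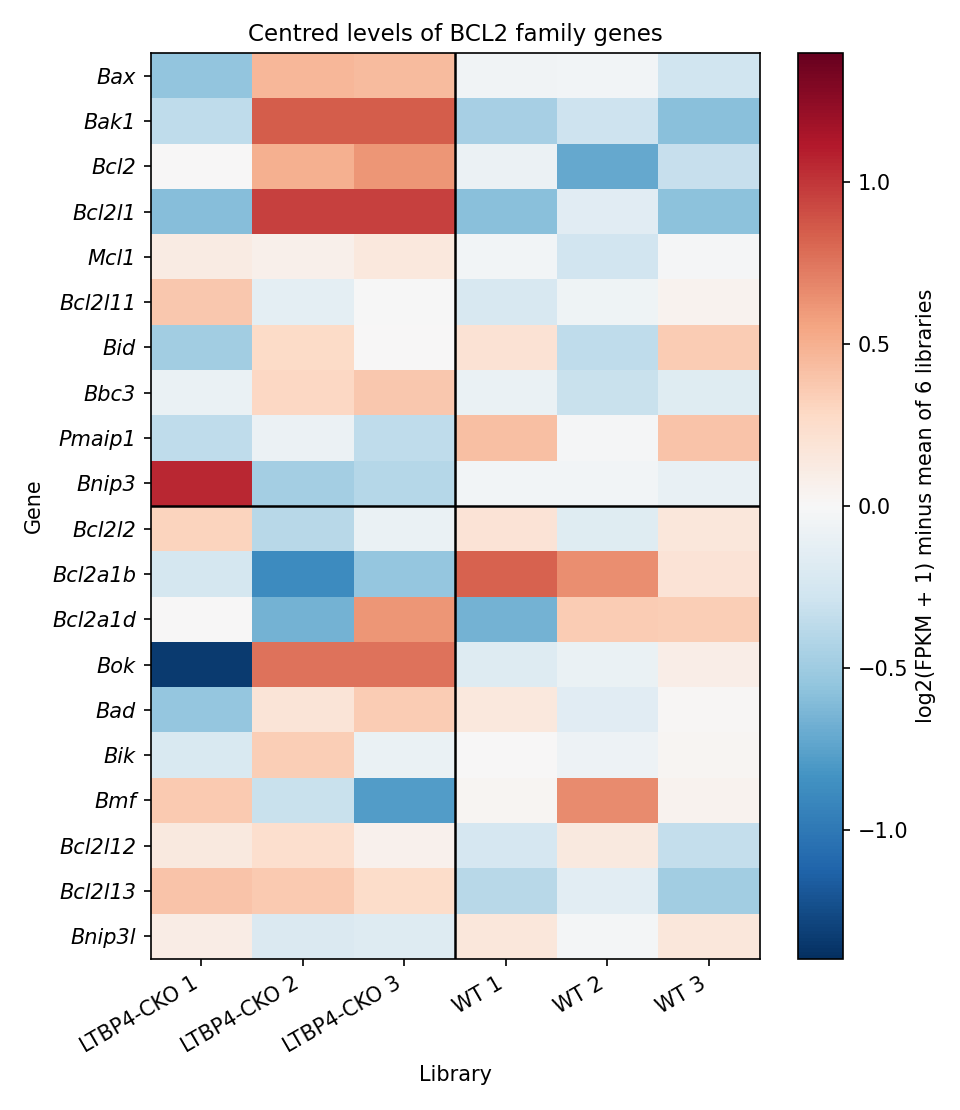
Centred log2(FPKM + 1) of the 10 genes (above the line) and of 10 further tested BCL2 family genes (below), with LTBP4-CKO libraries left of the vertical line and WT libraries right of it. *Bak1*, *Bcl2l1* and *Bok* are high in LTBP4-CKO libraries 2 and 3, *Bnip3* is high in LTBP4-CKO library 1, and *Bcl2l13* is high in all 3 LTBP4-CKO libraries.

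Genes that act with the family were described by list, and in each of the lists 0 genes passed the test in either direction. Of 17 apoptosome and caspase genes, 12 had higher estimates (median log2 difference 0.20). *Aifm1*, which encodes apoptosis-inducing factor, was at 22.3, 11.9 and 13.4 FPKM in LTBP4-CKO libraries 1 to 3, against 7.64, 9.02 and 10.2 FPKM in WT libraries 1 to 3 (0.84, SE 0.39). *Cycs*, the cytochrome c gene, was at 242, 54.1 and 55.8 FPKM in LTBP4-CKO libraries 1 to 3, against 63.9, 57.5 and 69.0 FPKM in WT libraries 1 to 3. Like *Bnip3*, *Cycs* was high in LTBP4-CKO library 1 and below WT in libraries 2 and 3, and its log2 difference was 0.89 (SE 0.70) with that library and −0.17 without it. Of 12 mitochondrial partner genes, 11 had higher estimates (median 0.56), among them the nucleotide carrier *Slc25a5* (0.99, SE 0.47) and *Ppif* (1.00, SE 0.71), which encodes cyclophilin D. *Ppif* was at 145, 31.8 and 32.1 FPKM in LTBP4-CKO libraries 1 to 3, against 29.2, 40.4 and 27.1 FPKM in WT libraries 1 to 3, so its difference rests on LTBP4-CKO library 1 (−0.073 without it). Of 10 death receptor and necroptosis genes, 6 had higher and 4 lower estimates (median 0.06), with −0.48 for the adaptor *Tradd* and −0.36 for the receptor *Fas*. Of 12 mitophagy genes, 6 had higher and 6 lower estimates (median 0.07), with 0.85 (SE 0.44) for the receptor *Optn*.

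Of 16 hypoxia response genes, 13 had higher estimates (median 0.39). *Vegfa*, the endothelial growth factor gene, was at 185, 75.8 and 76.7 FPKM in LTBP4-CKO libraries 1 to 3, against 30.04, 70.9 and 27.3 FPKM in WT libraries 1 to 3 (1.38, SE 0.63, and 0.74 without LTBP4-CKO library 1 or without WT libraries 1 and 3). *Ldha*, a glycolytic enzyme gene, was at 539, 608 and 619 FPKM in LTBP4-CKO libraries 1 to 3, against 317, 317 and 312 FPKM in WT libraries 1 to 3 (0.86, SE 0.47). Both genes were above WT in all LTBP4-CKO libraries, unlike *Bnip3*. Of 16 genes of p53 and its targets, 11 had higher estimates (median 0.19), with 0.74 for the nuclease *Aen* and 0.59 for the receptor *Eda2r*, and of 14 regulators of BH3-only proteins and MCL1, 8 did (median 0.15). *Fbxw7*, a ubiquitin ligase subunit that targets MCL1, was at 21.1, 11.1 and 10.1 FPKM in LTBP4-CKO libraries 1 to 3, against 4.49, 10.4 and 6.09 FPKM in WT libraries 1 to 3 (0.92, and 0.45 without LTBP4-CKO library 1 or 0.49 without WT libraries 1 and 3). *Foxo3*, a transcription factor that induces *Bcl2l11*, was at 0.691, 2.65 and 2.23 FPKM in LTBP4-CKO libraries 1 to 3, against 2.61, 3.13 and 1.97 FPKM in WT libraries 1 to 3 (−0.61, and −0.10 without LTBP4-CKO library 1). In LTBP4-CKO libraries 2 and 3 *Foxo3* lay within the WT range.

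The list medians also depended on which LTBP4-CKO sample was used. Without LTBP4-CKO library 1 the median of the mitochondrial partners was −0.01, and with it as the only LTBP4-CKO sample it was 1.02. In the same order the median was −0.12 and 0.46 for mitophagy, 0.38 and −0.48 for death receptors and necroptosis, and 0.10 and 0.02 for apoptosome and caspase genes. It was 0.09 and 0.09 for p53 and its targets and 0.13 and 0.0084 for the regulators. The equal p53 medians hide a split between the LTBP4-CKO samples. Of the 16 p53 genes, 5 were at least 2-fold higher in libraries 2 and 3, and 3 were at least 2-fold higher in library 1. Among all tested genes these shares were 11.6% and 15.6%. The hypoxia list kept a median of 0.37 and 0.45. The p53 median was also 0.37 without WT libraries 1 and 3 and 0.08 without WT library 2. The mitophagy median was −0.01 without WT libraries 1 and 3, the death receptor median was 0.0053 without WT library 2, and that of the regulators was 0.08 without WT library 2. Several named genes depended on LTBP4-CKO library 1 or on the WT samples in the same way. Without LTBP4-CKO library 1 the difference was 0.45 for *Aifm1*, 0.44 for *Optn* and −0.27 for *Tradd*. Without WT libraries 1 and 3 it was 0.54 for *Optn*, −0.11 for *Tradd* and −0.22 for *Fas*, and without WT library 2 it was 0.38 for *Eda2r*.

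Among 113 tested genes of the family and these lists, the closest profile over the 6 libraries was found by the root mean square difference of centred log2(FPKM + 1). *Bak1* and *Bcl2l1* were each other's closest gene (0.14). The closest to *Bax* was *Tnfrsf10b* (0.09), a death receptor, and the closest to *Bnip3* was *Vdac2* (0.15), an outer membrane channel that holds BAK1. *Bbc3* was closest to *Ywhae* (0.05), *Mcl1* to *Mapk8* (0.09), *Bid* to *Casp8* (0.16), *Bcl2l11* to *Dffb* (0.14) and *Bcl2* to *Pgk1* (0.20). The 6 libraries hold only 4 distinct samples, so these distances describe them and carry no test.

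The record numbers of the libraries fall into 2 runs, the second with 1 library per genotype, each a near repeat of a library in the first. Within the first and the second run the log2 difference was 0.00053 and 0.73 for *Bax*, 0.62 and 1.43 for *Bak1*, and 0.56 and 1.53 for *Bcl2l1*. It was 0.66 and 0.94 for *Bcl2*, 0.25 and 0.16 for *Mcl1*, and 0.29 and 0.55 for *Bbc3*. For *Bnip3* it was 0.33 and −0.29, for *Bcl2l11* 0.27 and −0.06, for *Bid* −0.03 and −0.35, and for *Pmaip1* −0.43 and −0.76. The sign thus differed between the runs for *Bnip3* and *Bcl2l11*, and the second run holds only LTBP4-CKO library 3 and WT library 3.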

How the data were processed

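The authors deposited 1 table of FPKM values per gene and library, made with Cufflinks on mm10, per the submitters' processing notes. For the aligner, the annotation and filters, nothing is stated in the sources used here. RNA was extracted with Trizol and libraries were made with a TruSeq kit that was not stated to keep strand, per the labels' protocols. Columns were matched to libraries by short name. Starts were raised by 1, since 12453 then equalled an exon start in GENCODE M21 (same build), against 1141 as printed. Depth was recovered from genes with 1 transcript over 1000 bases, where FPKM times length less an assumed fragment of 280 bases is a whole multiple of 1 fragment: 76.5% to 81.4% of low values lay no further than 0.15 from a whole number. These depths and reads are approximate, cover counting error only, and used the longest transcript of each member.

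The fit used limma 3.58.1 in R 4.3.3 (trend and robust, either direction, Benjamini-Hochberg adjustment over 12485 genes) on log2(FPKM + 1) of 2 against 2 samples, with 2 residual degrees of freedom. Ratios used scipy 1.17.1. The script was tested on simulated data. The members, the gene lists, the averaging of close libraries and the fit were chosen with earlier results of these data known. All 10 members were named, 2 genes per pathway list by smallest p, and *Ltbp4*. Alternatives were another pseudocount, no filter, median-of-ratios scaling, 6 separate libraries, a record run term, a replicate block and leaving out libraries. Sequences are RefSeq's, on GRCm38.p6. No promoter or position is given for *Pmaip1*.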

Additional observations from a re-analysis of the deposited data

How the results depend on the processing

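None of the 9 genes in the main test passed the threshold under any of the 15 alternatives (lowest limma adjusted p 0.274, for *Bcl2* with 6 separate libraries). *Pmaip1* was tested only with no filter and did not pass (limma adjusted p 0.996). *Bcl2a1b* (lowest 0.169) and *Bcl2l13* (lowest 0.191) did not pass either, and the other further family genes were not followed singly. The estimates of *Bak1*, *Bcl2*, *Mcl1*, *Bcl2l11*, *Bbc3* and *Pmaip1* kept their direction under all 15 alternatives. However, *Bcl2l11* was at 0.00062 without LTBP4-CKO library 1 and *Bak1* at 0.05 without LTBP4-CKO libraries 2 and 3. Leaving out libraries or samples in turn gave ranges that changed sign for *Bax* (−0.45 to 0.55), *Bcl2l1* (−0.22 to 1.33), *Bid* (−0.45 to 0.18), *Bnip3* (−0.38 to 1.11), *Cycs* (−0.17 to 1.95) and *Ppif* (−0.073 to 2.08). The same held for the log2 ratio differences of *Bak1* to *Mcl1* (−0.22 to 1.04), *Bcl2l1* to *Bcl2* (−0.97 to 0.17), *Mcl1* to *Bcl2l1* (−1.08 to 0.49) and *Bnip3* to *Bnip3l* (−0.12 to 1.08), and the differences of *Bax* to *Bcl2* (−1.33 to −0.49) and *Bax* to *Bcl2l1* (−0.78 to −0.23) kept their sign. The signs of *Bax* and *Bcl2l1* turned without LTBP4-CKO libraries 2 and 3, and those of *Bid* and *Bnip3* without LTBP4-CKO library 1. *Bax* was also just below 0 without WT libraries 1 and 3 (−0.01) or WT library 3 (−0.0054), and *Bid* above 0 without WT libraries 1 and 3 (0.18). A sample left alone in its group is assumed to vary like the other group. Over the whole table, genes called higher and lower numbered 1 and 0, and leaving out libraries gave 1 to 2 and 0 to 10, with the top of both ranges without WT library 2, and 2 and 3 without LTBP4-CKO libraries 2 and 3. They were 0 and 0 with no filter and 1 and 1 with 6 separate libraries.

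With the replicate block of the short names they were 1 and 0, and 9 and 39 with the 4 libraries whose titles share a number as a block. The same-numbered libraries' deviations correlated at 0.116, 0.125 and −0.0977 by short name, and at 0.116 and −0.112 by title. With 2 distinct samples per genotype these correlations cannot show whether a shared number marks a pair, and the labels do not say. The cause of these changes was not tested. Depth limits *Pmaip1*, at about 1.03 to 11.2 reads per library.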
